A study of Danio rerio with 13 samples.

Results

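Sarcomere genes of skeletal muscle, of the fast and the slow kind, were read in RNA sequencing counts from zebrafish larvae. Rows of the count table were taken by gene symbol (myosin heavy and light chains, skeletal actins, troponins, tropomyosins, myosin binding proteins, titin, nebulin, nrap, Z-disc proteins and tropomodulins), leaving out the heart genes tnnt2a, tnnc1a and tnni1b, and were kept with a count in at least 3 libraries. This gave 68 of the 32417 rows, with 66 symbols, since smyhc2 and myhz1.1 each name a pair of rows. The later row of such a pair is called the second row here. The rule reads symbols and detection and no difference between groups, but it was written with earlier results of these data known.

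The study examined aldh3b1, an aldehyde dehydrogenase gene, in the setting of diabetic retinopathy. All 13 libraries came from larvae of the Tg(fli1:EGFP) line, in which the fli1 promoter drives a green fluorescent protein in endothelial cells. The groups were 5 untreated libraries of genotype WT (aldh3b1+/+), 3 untreated libraries of the CRISPR knockout (aldh3b1-/-) and 5 libraries of WT larvae given 2-HD. What 2-HD stands for is not in the labels, nor are its dose, its duration, the age of the larvae or a vehicle control. Nothing states that libraries of the same group are separate pools or clutches, so p-values measure the spread between these libraries, which may be technical.

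A sarcomere is the repeating contractile unit of striated muscle, in which myosin thick filaments pull on actin thin filaments. Troponin and tropomyosin make the thin filament respond to calcium, titin and nebulin act as long scaffolds, and the Z-disc anchors thin filaments at both ends of the unit. In zebrafish larvae slow fibres form a superficial layer of the trunk muscle and fast fibres its bulk, and the fibre types use different myosin, troponin and binding protein genes.

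Libraries held 17975289 to 19482661 counts. Levels are CPM, counts scaled to a common library size with TMM factors. A count of 0 allows up to 3 counts, which were worth 0.148 to 0.173 CPM depending on the library. A row was called at an edgeR adjusted p under 0.05 over all 22158 rows that passed the filter on low counts, and the words rose and fell are kept for called rows. Of the 68 rows, 67 passed, and tnni1a, with 0 to 9 counts per library, did not. The skeletal muscle genes ckma, a muscle creatine kinase (4276 to 4736 CPM in wild type), and atp2a1, a calcium pump (6337 to 7050.1 CPM), were read in every library. With 2-HD ckma fell (log2 fold change -0.38, edgeR adjusted p = 0.00502), while atp2a1 (-0.08) and the muscle regulator myod1 (0.11) were not called. In the knockout ckma, atp2a1 and myod1 were not called. The targeted gene aldh3b1 stood at 6.10 ± 1.22 CPM in wild type (SD, n = 5) and 5.19 ± 0.608 CPM in the knockout (SD, n = 3), a difference that was not called (edgeR adjusted p = 0.474), so its transcript level does not check the knockout label. On the second principal component of all rows, wild type replicate 14 and 2-HD replicate 1 stood apart from the other 11 libraries.

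Of 4 slow myosin heavy chain rows 3 rose in each comparison with wild type, smyhc1 and the first row of smyhc2 in both, while the most read fast light chain, troponin and actin rows fell with 2-HD. In the knockout, 11 of the 67 tested rows were called (16.4%, against 5.97% of all rows tested), 8 higher and 3 lower, where 4.10% of all rows were higher and 1.86% lower. With 2-HD 42 of 67 were called (62.7%, against 42.4% of all rows), 21 higher and 21 lower, where 22.7% of all rows were higher and 19.7% lower. The median log2 fold change over the 67 rows was -0.02 in the knockout and -0.09 with 2-HD, against 0.00142 and 0.02 over all rows. Both comparisons use the same 5 wild-type libraries. Counts by role and by list are to be read against the shares over all rows given above.

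The knockout calls lay close to the threshold. Without knockout replicate 3 and without knockout replicate 7 there were 0 members called by edgeR (3 and 4 rows of the whole table), with 29 and 24 at an unadjusted p under 0.05, and without knockout replicate 2 there were 17. Without wild type replicate 10 or 13 there were 2, smyhc1 and the second row of smyhc2, and without wild type replicate 14, 2-HD replicate 2 or 2-HD replicate 4 there were 7, 6 and 4. The 2-HD libraries enter this comparison through the shared estimate of spread. With only knockout and wild type fitted, 3 members were called, smyhc1 and both rows of smyhc2 (102 rows of the whole table). The calls of mylz3, tnni2a.1, tnni2a.2, tnni2b.1, tnnc2, tpm1, mybpc3 and myoz2a were lost in that fit. The log2 fold changes of smyhc1 (0.59 to 0.74), the second row of smyhc2 (1.70 to 2.18), mylz3 (-0.45 to -0.34) and tnnc2 (-0.40 to -0.29) stayed near their values under every alternative run, so that their calls were lost with little change in size. Those of tnni2a.1, tnni2b.1, tpm1 and mybpc3 shrank to 0.24, 0.09, 0.18 and 0.11 with the replicate number as a block, and that of tpm1 to 0.35 without knockout replicate 7. In the block fit, libraries whose number no other library shares, knockout replicate 7 among them, do not inform the group differences. Without the pair that stood apart, 6 members were higher and 6 lower in the knockout, and 22 higher and 23 lower with 2-HD. In bulk samples, fewer cells of a type and less RNA per cell cannot be told apart.

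**Figure D1:**
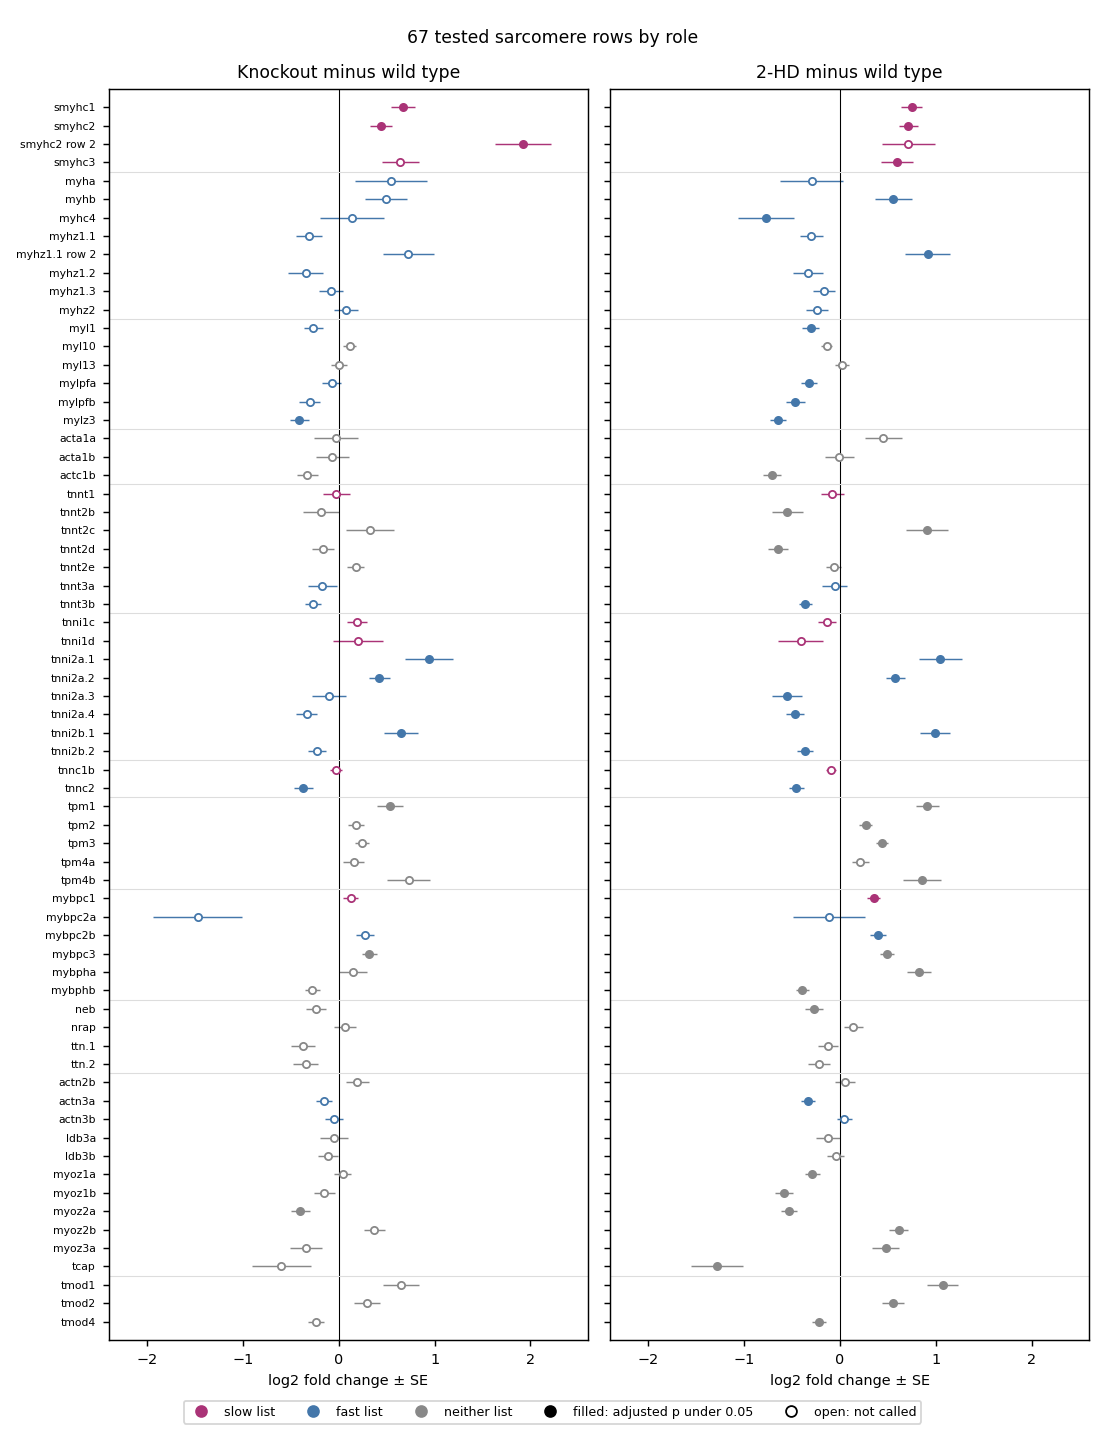
Log2 fold change (x axis, bars ± SE) of the 67 tested sarcomere rows, listed by role, for knockout minus wild type (left) and 2-HD minus wild type (right). Colours mark the slow list, the fast list and rows in neither, and filled points were called. In the left panel 11 points are filled and in the right panel 42, 21 on each side of 0.

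Slow myosin heavy chain, the motor protein of slow fibres, was read in 4 rows of the neighbouring genes smyhc1, smyhc2 and smyhc3. In the knockout 3 of the 4 rose and 0 fell, and with 2-HD 3 rose and 0 fell. Reads that fit more than 1 of these similar genes could be split or lost in the authors' counting, so the division between the rows is uncertain. By library, in the order of replicate number, smyhc1 stood at 569.9, 391, 469, 505 and 464 CPM in wild type, at 749.7, 693 and 849 CPM in the knockout and at 888, 702, 765, 694 and 973 CPM with 2-HD. Every knockout and every 2-HD library lay above the highest wild type, and knockout and 2-HD overlapped each other. The mean was 479.7 ± 65.2 CPM in wild type (SD, n = 5) and 764 ± 79.2 CPM in the knockout (SD, n = 3), a log2 rise of 0.67 with an SE of 0.13 (edgeR adjusted p = 0.0154). With 2-HD the mean was 804 ± 122 CPM (SD, n = 5), a log2 rise of 0.75 with an SE of 0.11 (edgeR adjusted p = 0.000179). The knockout call was lost without knockout replicate 3 and without knockout replicate 7, while the log2 fold change stayed at 0.59 to 0.74 over all alternatives.

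The first row of smyhc2 had 53.3, 51.7, 50.2, 54.7 and 51.5 CPM in wild type, 64.3, 70.9 and 78.2 CPM in the knockout and 92.1, 86.5, 65.4, 81.1 and 103 CPM with 2-HD. Wild-type libraries were close together, and the lowest library of each other group stood above all of them. The log2 fold change was 0.44 in the knockout (SE 0.11, edgeR adjusted p = 0.0373) and 0.71 with 2-HD (SE 0.10, edgeR adjusted p = 0.000111). The knockout call was lost without the pair that stood apart (edgeR adjusted p = 0.0522, within 0.0114 to 0.717 over all alternatives) and in 7 of the 13 fits that left out 1 library.

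The second row named smyhc2 had few reads and the largest rise of any member in the knockout. Its counts were 37, 57, 27, 33 and 39 in wild type and 96, 184 and 192 in the knockout, or 2.14 ± 0.602 and 8.12 ± 2.79 CPM on average. That log2 rise was 1.92 with an SE of 0.30 (edgeR adjusted p = 0.0101). Knockout replicates 3 and 7 stood well above replicate 2, which itself lay above every wild type. With 2-HD it stood at 2.01, 3.20, 5.53, 3.42 and 3.37 CPM, where only replicate 3 was clearly above the others, and that difference was not called (log2 fold change 0.71, edgeR adjusted p = 0.0502). It was the only slow myosin row called between knockout and 2-HD (log2 difference 1.21, edgeR adjusted p = 0.0255), although 2-HD replicate 3 overlapped the knockout.

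The last slow gene, smyhc3, stood at 2.29 to 3.70 CPM in wild type, 3.59 to 5.27 CPM in the knockout and 3.94 to 5.38 CPM with 2-HD. It rose with 2-HD (log2 fold change 0.60, edgeR adjusted p = 0.0107) and was not called in the knockout (log2 fold change 0.64, edgeR adjusted p = 0.059). In that gene 1 knockout library lay within the wild-type range.

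**Figure D2:**
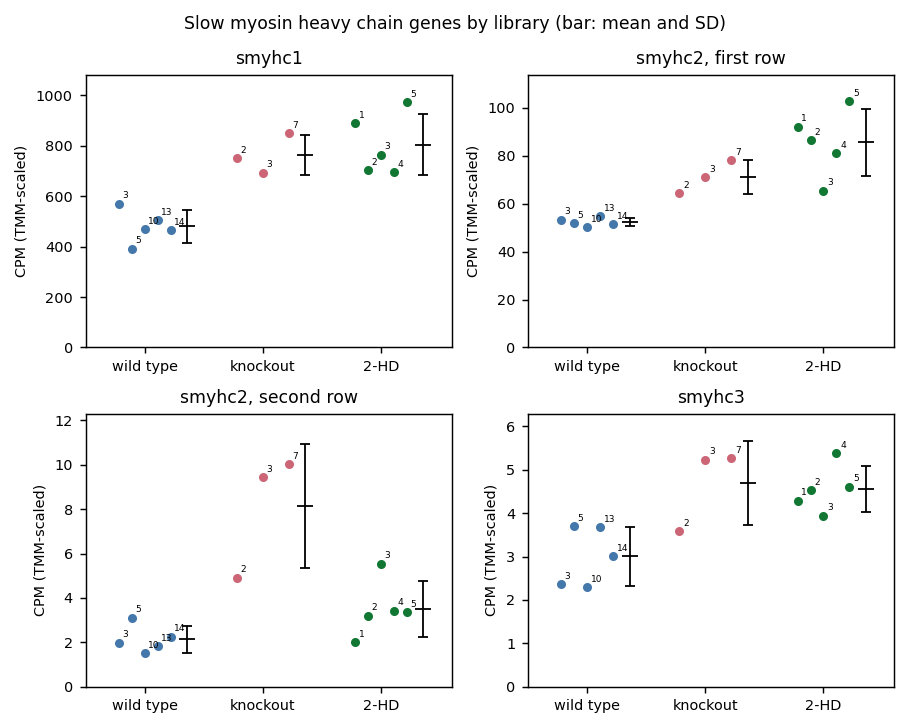
CPM (y axis, from 0) of the 4 slow myosin heavy chain rows in each library, with points numbered by replicate and bars for mean and SD. In smyhc1 and the first row of smyhc2 all knockout and 2-HD points lie above the wild types, and in the second row of smyhc2 knockout replicates 3 and 7 stand highest.

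Fast myosin heavy chain genes, the motors of fast fibres, had 0 of 8 rows called by edgeR in the knockout (3 at an unadjusted p under 0.05, 0 by DESeq2) and 3 of 8 with 2-HD, 2 higher and 1 lower. The genes myhz2, myhc4, myha, myhz1.3, myhz1.2 and myhz1.1 follow each other in the gene order of assembly GRCz12tu, so reads shared between them are again uncertain. The first row of myhz1.1 stood at 9688, 10521, 11272, 11385 and 14101 CPM in wild type, 9736, 8786 and 9109 CPM in the knockout and 12266, 8494, 7781, 8778 and 8917 CPM with 2-HD. Wild type replicate 14 and 2-HD replicate 1 were the highest of their groups, and the groups overlapped. Neither log2 fold change was called (-0.31 in the knockout, edgeR adjusted p = 0.183, and -0.30 with 2-HD, edgeR adjusted p = 0.0529). The same pair of libraries was highest in myhz1.2, which stood at 3705 ± 713 CPM in wild type, 2919 ± 83.4 CPM in the knockout and 2938 ± 783 CPM with 2-HD (log2 fold changes -0.34 and -0.33, not called). By contrast, myhz2 stood at 4972 ± 994, 5246 ± 218 and 4207 ± 264 CPM in the same order (log2 fold changes 0.08 and -0.24, not called). Over the 8 rows, 5 log2 fold changes lay above 0 in the knockout (median 0.11) and 2 with 2-HD (median -0.27).

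Among the less read fast heavy chain rows, myhb rose with 2-HD from 48.9 ± 11.1 to 72.0 ± 18.3 CPM (edgeR adjusted p = 0.0301), and the second row of myhz1.1 rose from 23.6 ± 7.32 to 44.6 ± 11.8 CPM (edgeR adjusted p = 0.00571). Both overlapped wild type in 2-HD replicate 3. The call of myhb held in 7 of the 13 fits without 1 library, and its log2 fold change (0.56) ranged from 0.14 to 0.70 over all alternatives, lowest with the replicate number as a block. The gene myhc4 fell with 2-HD (log2 fold change -0.77, edgeR adjusted p = 0.0461). It stood at 179, 206, 103, 161 and 76.2 CPM in wild type, 181, 137 and 160.1 CPM in the knockout and 35.2, 70.4, 104, 99.9 and 115 CPM with 2-HD. Wild type replicate 14 and 2-HD replicate 1 were the lowest of their groups, the reverse of their place in myhz1.1, and the call held in 3 of the 13 fits without 1 library. The neighbouring gene myha, named after its values were seen, was also lowest in 2-HD replicate 1 (8.31 CPM, against 28.5 to 41.7 CPM in the other 4). Among wild types replicate 14 was lowest (21.0 CPM), but replicate 10 was close to it (21.6 CPM) and the rest reached 55.1 CPM.

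Myosin light chains bind the neck of the heavy chain. In the knockout 1 of 6 rows fell and 0 rose, and with 2-HD 4 fell and 0 rose. The row that fell in both was mylz3, a fast essential light chain, which stood at 6968, 6477, 7788, 7572 and 7234 CPM in wild type, 5513, 5113 and 5646 CPM in the knockout and 5587, 4545, 4228, 4537 and 4147 CPM with 2-HD. All libraries of both other groups lay below all wild types. The log2 fold changes were -0.41 in the knockout (SE 0.10, edgeR adjusted p = 0.0288) and -0.65 with 2-HD (SE 0.08, edgeR adjusted p = 7.07e-05).

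The fast regulatory light chains mylpfa and mylpfb fell with 2-HD, from 10434 ± 771 to 8359.7 ± 928 CPM (edgeR adjusted p = 0.007) and from 1776 ± 162 to 1283 ± 131 CPM (edgeR adjusted p = 0.00166), and were not called in the knockout. The essential light chain myl1 fell with 2-HD by less (log2 fold change -0.31, edgeR adjusted p = 0.00942), a call lost with scaling by library size only and with the replicate number as a block. The light chain myl10 was called only between knockout and 2-HD, at 405 ± 21.6 and 339 ± 14.8 CPM (log2 difference 0.25, edgeR adjusted p = 0.041), with wild type between them at 374 ± 21.8 CPM. That call held in 9 of 21 alternatives, and in 5 of the 13 fits without 1 library.

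Alpha actin forms the thin filament itself. Its row actc1b held the most counts of any member in every library, at 1.94 to 2.48% of the total for wild types, 1.69 to 2.01% for knockouts and 1.33 to 1.78% for 2-HD. It stood at 25374, 22188, 24334, 24501 and 20096 CPM in wild type, 19115, 19645 and 16993 CPM in the knockout and 17769, 14349, 13040.1, 13419.7 and 12808 CPM with 2-HD. Within the wild types replicate 14 was lowest, and within 2-HD replicate 1 was highest, yet in CPM no library of the other groups reached a wild type. As a share of total counts, knockout replicates 2 and 3 (1.96 and 2.01%) lay above wild type replicate 14 (1.94%). The fall was called with 2-HD, at a log2 fold change of -0.71 with an SE of 0.09 (edgeR adjusted p = 8.75e-05), and not in the knockout (log2 fold change -0.33, SE 0.11, edgeR adjusted p = 0.0844). The knockout was called higher than 2-HD, although its replicate 7 lay below 2-HD replicate 1 (log2 difference 0.38, edgeR adjusted p = 0.0476), a call that held in 2 of the 13 fits without 1 library.

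The other skeletal actins were not called in any comparison. With 2-HD, acta1a ranged from 319 CPM in replicate 5 to 651 CPM in replicate 4, and acta1b from 982 CPM in replicate 5 to 1819 CPM in replicate 4. The same libraries were thus lowest and highest for both genes.

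Troponin T ties the troponin complex to tropomyosin. None of 7 rows was called by edgeR in the knockout (1 at an unadjusted p under 0.05 and 1 by DESeq2), and with 2-HD 1 rose and 3 fell. The fast gene tnnt3b fell with 2-HD from 5628 ± 490.5 to 4379 ± 229.7 CPM (log2 fold change -0.36, edgeR adjusted p = 0.000967), tnnt2d fell from 107 ± 11.1 to 68.1 ± 9.33 CPM (log2 fold change -0.65, edgeR adjusted p = 0.000242) and tnnt2b also fell (log2 fold change -0.55). In all 3 every 2-HD library lay below every wild type. In the knockout tnnt2d stood at 95.1 ± 10.988 CPM, above every 2-HD library (edgeR adjusted p = 0.0274 for the difference). That call held in 14 of 21 alternatives, and in 7 of the 13 fits without 1 library. The rise was that of tnnt2c (6.05 ± 1.41 to 11.3 ± 4.30 CPM, edgeR adjusted p = 0.00419), with 2-HD replicate 5 at 18.6 CPM and the other 4 at 7.23 to 10.99 CPM. The slow gene tnnt1 was not called, at 13.9 ± 2.41 CPM in wild type, 13.6 ± 2.10 CPM in the knockout and 13.1 ± 1.07 CPM with 2-HD.

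Troponin I holds the filament off when calcium is low, and its fast paralogues moved in opposite directions with 2-HD. Of 8 tested rows 3 rose and 0 fell in the knockout, and with 2-HD 3 rose and 3 fell. The rows that rose were the fast tnni2a.1, tnni2a.2 and tnni2b.1 in each comparison, and both comparisons share their wild types. By library tnni2a.1 stood at 19.5, 23.5, 15.7, 10.3 and 18.9 CPM in wild type, 24.5, 31.3 and 45.6 CPM in the knockout and 40.6, 44.4, 26.9, 43.1 and 26.6 CPM with 2-HD. No knockout or 2-HD library fell within the wild-type range, though the lowest of each lay close to it. The log2 fold changes were 0.94 (SE 0.25, edgeR adjusted p = 0.0415) and 1.04 (SE 0.22, edgeR adjusted p = 0.00183).

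Likewise tnni2b.1 stood at 52.1, 46.6, 33.3, 30.4 and 37.5 CPM in wild type, 53.1, 59.4 and 75.8 CPM in the knockout and 84.1, 92.6, 59.9, 86.0 and 74.8 CPM with 2-HD, again without overlap (edgeR adjusted p = 0.0438 and 0.000228). For tnni2a.2 the log2 fold changes were 0.42 and 0.58. Without the pair that stood apart, the knockout calls of tnni2a.1 (edgeR adjusted p = 0.0525) and tnni2b.1 (edgeR adjusted p = 0.0671) were lost, values within 0.00715 to 0.891 and 0.0121 to 0.948 over all alternatives. These calls held in 11 (tnni2a.1) and 10 (tnni2b.1) of 21 alternatives, and in 6 and 5 of the 13 fits without 1 library.

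The other rows of the same tandem clusters fell with 2-HD. The gene tnni2a.4 went from 2381 ± 237 to 1719.6 ± 163 CPM (log2 fold change -0.47, edgeR adjusted p = 0.00106) and tnni2b.2 from 435 ± 20.1 to 337 ± 37.8 CPM (log2 fold change -0.37, edgeR adjusted p = 0.0024), neither with overlap, and tnni2a.3 fell as well (log2 fold change -0.55). In the knockout tnni2a.4 stood at 1888 ± 269.7 CPM (edgeR adjusted p = 0.073, not called). The slow troponin I genes tnni1c and tnni1d were not called in any comparison.

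Troponin C binds the calcium. The fast gene tnnc2 fell in both comparisons, with 3568, 3581, 3842, 4461 and 3895 CPM in the wild types, 3132, 2799.9 and 3061 CPM in the knockouts and 3247, 2817, 2633, 2932 and 2485 CPM with 2-HD. No library of either group reached the wild-type range. The log2 fold changes were -0.37 (SE 0.10, edgeR adjusted p = 0.0392) and -0.45 (SE 0.08, edgeR adjusted p = 0.000579). The slow gene tnnc1b stood at 122 ± 3.62, 119.6 ± 3.46 and 114 ± 5.97 CPM in wild type, knockout and 2-HD and was not called.

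Tropomyosin lies along the actin filament, and some of its genes are also used outside muscle. With 2-HD 4 of 5 rows rose and 0 fell, and in the knockout 1 rose. The row that rose in both was tpm1, at 130.4, 121, 99.7, 100.3 and 125 CPM in wild type, 126, 167 and 208 CPM in the knockout and 234, 234, 196, 227 and 194 CPM with 2-HD. All 2-HD libraries were above wild type, while knockout replicate 2 lay within it. The log2 fold changes were 0.53 (SE 0.14, edgeR adjusted p = 0.0393) and 0.91 (SE 0.12, edgeR adjusted p = 8.99e-05). With 2-HD tpm3 rose from 352 ± 28.7 to 477 ± 11.1 CPM (edgeR adjusted p = 0.000135), tpm2 from 294 ± 13.1 to 353 ± 20.4 CPM and tpm4b from 15.2 ± 3.66 to 27.4 ± 7.22 CPM.

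**Figure D3:**
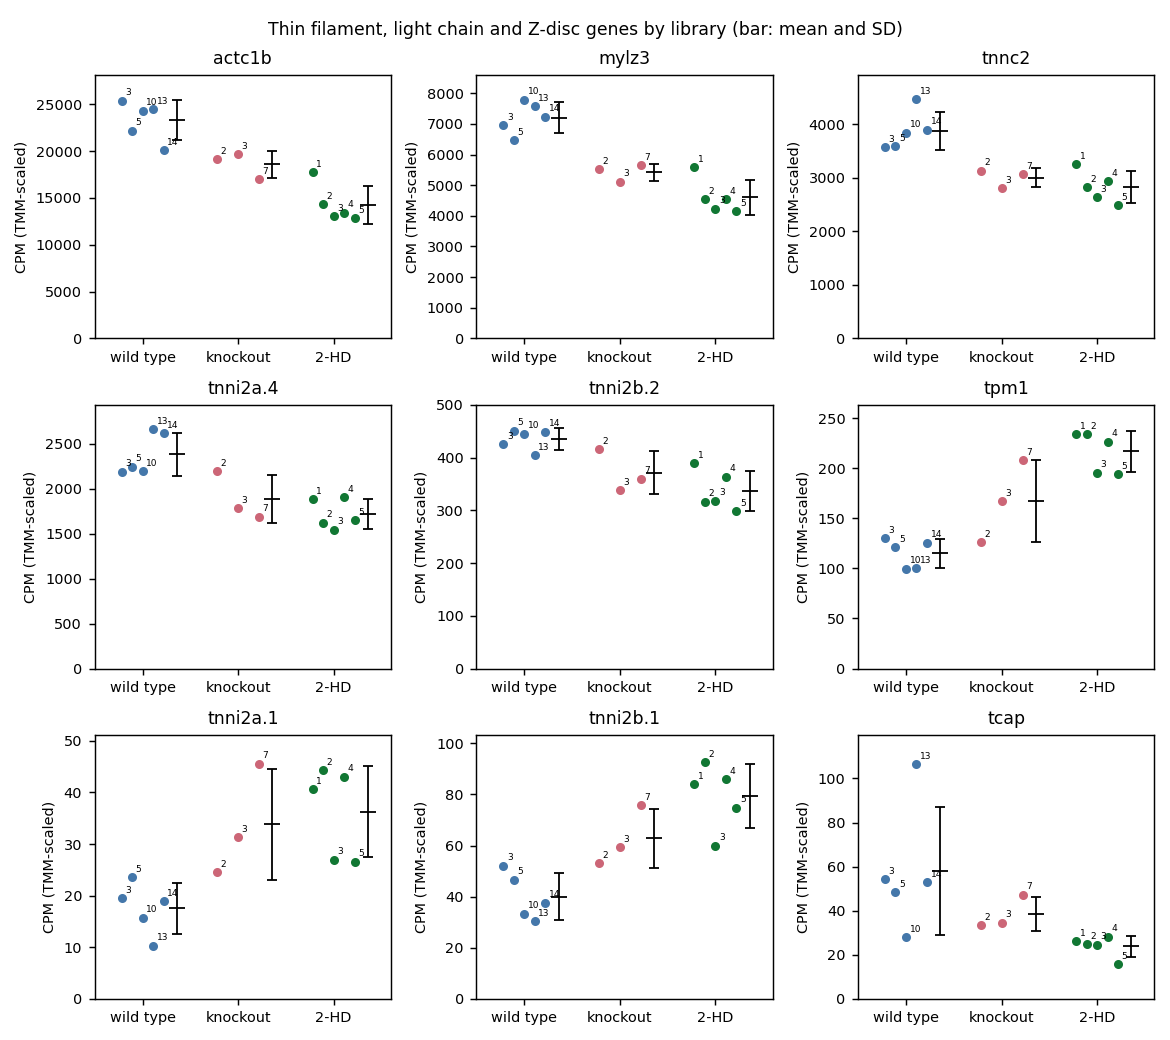
CPM (y axes, from 0) of 9 rows in each library, with points numbered by replicate and bars for mean and SD. In actc1b, mylz3 and tnnc2 the knockout and 2-HD points lie below all wild types, in tnni2a.1 and tnni2b.1 they lie above them, and in tcap wild type replicate 13 stands far above the others.

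Myosin binding proteins line the thick filament. With 2-HD 4 of 6 rows rose and 1 fell, and in the knockout 1 rose. The gene mybpc3, the heart form in mammals, rose from 85.5 ± 9.12 to 107 ± 3.33 CPM in the knockout (edgeR adjusted p = 0.0358) and to 120.1 ± 3.75 CPM with 2-HD (edgeR adjusted p = 0.000126), with all libraries of both above the wild types. The knockout call was lost without the pair that stood apart (edgeR adjusted p = 0.0600, within 0.00825 to 0.871 over all alternatives). It held in 12 of 21 alternatives, and in 7 of the 13 fits without 1 library. With 2-HD mybpha rose from 18.6 ± 3.60 to 32.8 ± 3.54 CPM (log2 fold change 0.82, edgeR adjusted p = 0.000196) and stood above the knockout (20.6 ± 1.75 CPM, edgeR adjusted p = 0.0199). Its paralogue mybphb fell with 2-HD from 1315 ± 85.8 to 1001 ± 68.1 CPM (edgeR adjusted p = 0.000409). The slow gene mybpc1 (log2 fold change 0.35) and the fast gene mybpc2b (log2 fold change 0.40) rose with 2-HD.

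The fast gene mybpc2a, named after its values were seen, differed widely between libraries of a group. It stood at 104, 93.1, 55.1, 115 and 20.04 CPM in wild type replicates 3, 5, 10, 13 and 14, at 21.7, 32.8 and 29.3 CPM in the knockout and at 26.9, 81.9, 82.6, 83.4 and 82.9 CPM in 2-HD replicates 1 to 5. The knockout libraries, wild type replicate 14 and 2-HD replicate 1 lay between 20.04 and 32.8 CPM and the other 8 libraries at 55.1 CPM or above. The knockout difference was not called, at -1.47 on the log2 scale with an SE of 0.47 (edgeR adjusted p = 0.0705). It was called without wild type replicate 14 (edgeR adjusted p = 0.0262), without 2-HD replicate 1 (0.0378), without both (0.00336) and by DESeq2 (0.0416), and its adjusted p reached 0.217 at most over the alternatives. In the gene order of assembly GRCz12tu, mybpc2a lies on the chromosome of aldh3b1, 162 genes from it. Of the other members placed on that chromosome, mylpfa lies 49, tnnt1 89 and tcap 434 genes away, and none of these was called in the knockout. The gene tnnc2, which fell in the knockout, had no match in that gene order and was not placed.

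Titin (ttn.1 and ttn.2), nebulin (neb) and the nebulin-related nrap had 0 of 4 rows called by edgeR in the knockout (3 at an unadjusted p under 0.05 and 1 by DESeq2) and 1 with 2-HD, neb, which fell (log2 fold change -0.27, edgeR adjusted p = 0.0264) with overlapping libraries. Its call was lost without the pair that stood apart (edgeR adjusted p = 0.0584, within 0.00793 to 0.411 over all alternatives), and without wild type replicate 14, 2-HD replicate 2 or 2-HD replicate 4. It was also lost with scaling by library size only and with the replicate number as a block. All knockout libraries of ttn.1 (1729 to 1939.7 CPM) and ttn.2 (1519 to 1889 CPM) stood below the wild types (2086 to 3084 and 2021 to 2786 CPM), but these differences were not called (edgeR adjusted p = 0.0836 and 0.126). Wild type replicate 14 was the highest library for both.

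Z-disc genes had 1 of 11 rows lower in the knockout and 5 lower and 2 higher with 2-HD, the rises being below the share over all rows (22.7%). Myozenins are small proteins that bind alpha-actinin and calcineurin, and their genes differed among themselves. The gene myoz2a fell in the knockout (log2 fold change -0.40, edgeR adjusted p = 0.0351) and with 2-HD (log2 fold change -0.54, edgeR adjusted p = 0.000263), from 40.4 ± 4.25 CPM to 30.6 ± 2.23 and 27.9 ± 2.58 CPM, without overlap. The knockout call of myoz2a held in 12 of 21 alternatives, and in 7 of the 13 fits without 1 library. Its paralogue myoz2b rose with 2-HD from 10.1 ± 1.41 to 15.5 ± 1.27 CPM (edgeR adjusted p = 0.000256). With 2-HD myoz1b fell from 266 ± 10.9 to 177 ± 28.6 CPM (edgeR adjusted p = 0.000245) and myoz1a from 153 ± 16.7 to 125 ± 5.41 CPM (edgeR adjusted p = 0.00765). The fall of myoz1a was not called with scaling by library size only. Both genes were called higher in the knockout than with 2-HD, with overlap in myoz1b (edgeR adjusted p = 0.028 and 0.0382). These calls held in 13 (myoz1b) and 12 (myoz1a) of 21 alternatives, and in 7 and 6 of the 13 fits without 1 library. The gene myoz3a rose with 2-HD (edgeR adjusted p = 0.0123), to 25.2 ± 4.24 CPM against 14.3 ± 3.05 CPM in the knockout (edgeR adjusted p = 0.0171).

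Of the alpha-actinins, which crosslink thin filaments, actn3a fell with 2-HD from 1799 ± 145 to 1429 ± 75.6 CPM (edgeR adjusted p = 0.00235), and actn3b and actn2b were not called. Telethonin, the titin cap encoded by tcap, had the largest fall of any member with 2-HD, and was named after its values were seen. It stood at 54.4, 48.5, 28.0, 106 and 52.8 CPM in wild type, 33.4, 34.4 and 47.2 CPM in the knockout and 26.1, 24.6, 24.6, 28.1 and 15.6 CPM with 2-HD. The wild types were spread widely, with replicate 13 far above and replicate 10 within the 2-HD range. The log2 fold change was -1.29 with 2-HD (SE 0.27, edgeR adjusted p = 0.00166) and -0.60 in the knockout (SE 0.31, edgeR adjusted p = 0.25, not called).

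Tropomodulins cap the slow-growing end of the thin filament. With 2-HD tmod1, also a gene of red blood cells in mammals, rose from 2.01 ± 0.327 to 4.24 ± 0.77 CPM (log2 fold change 1.07, edgeR adjusted p = 0.000187), and tmod2, a neuronal form in mammals, rose from 8.20 ± 1.07 to 11.999 ± 1.15 CPM (edgeR adjusted p = 0.00167). The muscle form tmod4 fell from 256 ± 25.7 to 220.3 ± 10.3 CPM (log2 fold change -0.22, edgeR adjusted p = 0.0273), with log2 fold changes of -0.24 to -0.12 over all alternatives. Its call was lost without wild type replicate 14, 2-HD replicate 2 or 2-HD replicate 3. The call was also lost with scaling by library size only and with the replicate number as a block. None of the 3 was called by edgeR in the knockout, with 3 at an unadjusted p under 0.05 and 1 by DESeq2.

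**Figure D4:**
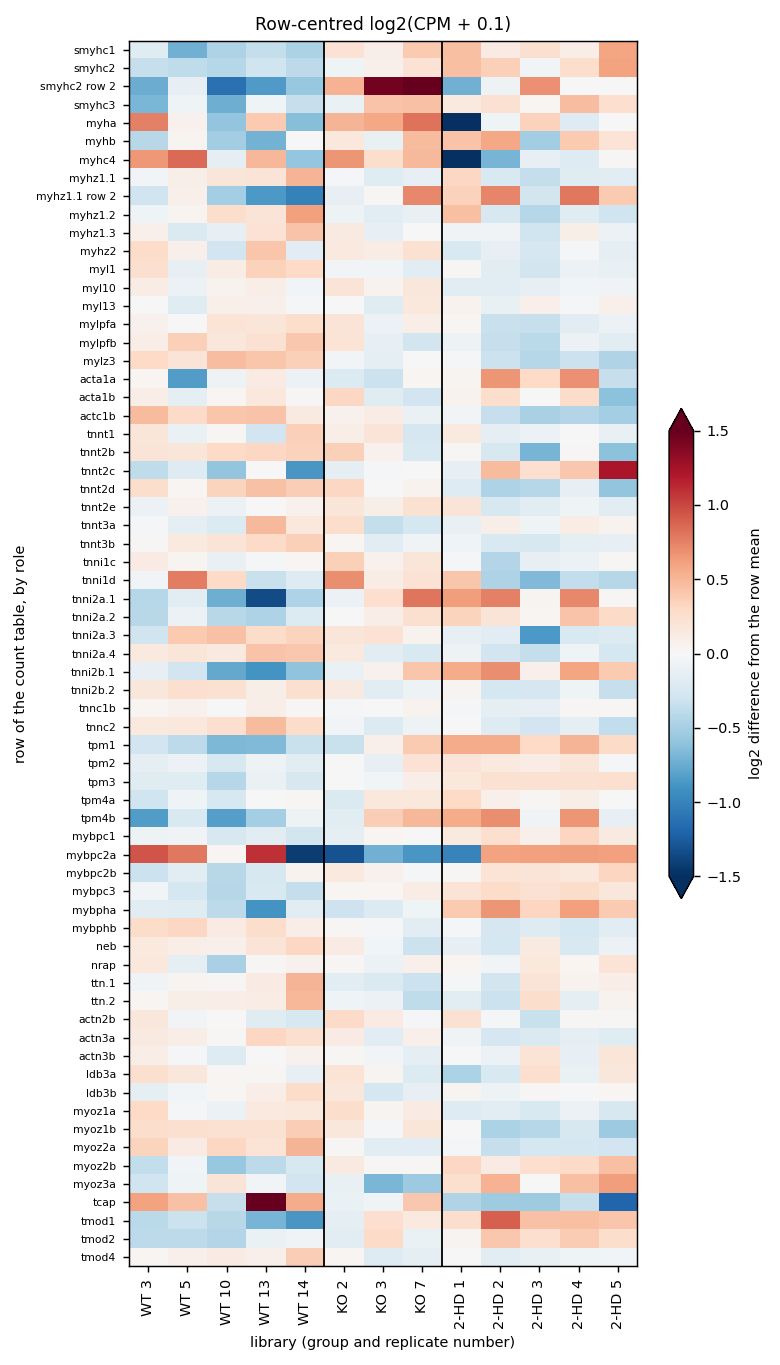
Log2(CPM + 0.1) of the 67 tested rows (by role, y axis) in the 13 libraries (x axis), each row centred on its mean, with colours limited to 1.5 on either side of 0. Wild type replicate 14 and 2-HD replicate 1 are the lowest libraries of their groups in myha, myhc4 and mybpc2a.

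Counts were also summed over lists of fibre type, described without a test because the lists were chosen from known roles with earlier results of these data in view. The slow list holds 10 rows (smyhc1, smyhc2, smyhc3, tnnt1, tnni1, tnnc1b and mybpc1) and the fast list 25 (the fast heavy and light chains, tnnt3, tnni2, tnnc2, mybpc2 and actn3). The slow sum was 753 ± 62.8 CPM in wild type (SD, n = 5), 1071 ± 85.8 CPM in the knockout (SD, n = 3) and 1112 ± 136 CPM with 2-HD (SD, n = 5). Every knockout and 2-HD library lay above every wild type. The fast sum was 58202 ± 4436, 50032 ± 3084 and 45550.4 ± 4655 CPM in the same order. In these scaled values no library of the other groups reached the wild-type range of 54003 to 63932 CPM. That separation depends on the TMM factors (0.944 to 0.979 in wild type, 0.992 to 1.024 in the knockout, 1.003 to 1.042 with 2-HD). Without them, knockout replicate 2 and 2-HD replicate 1 lie within the wild-type range of the fast sum.

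Of heavy chain counts alone, the slow rows made up 2.94, 2.12, 2.44, 2.33 and 1.97% in wild type, 3.88, 3.99 and 4.54% in the knockout and 4.18, 4.33, 5.03, 4.08 and 5.74% with 2-HD. This share does not depend on the scaling of libraries, and its wild-type libraries lay below all others. Within the slow heavy chain counts smyhc1 held 87.0 to 91.1% in every library. The rise of the slow sum was mainly that of smyhc1: without it the log2 ratio of the slow sum fell from 0.51 to 0.17 in the knockout and from 0.56 to 0.17 with 2-HD. In the slow list 3 of 9 tested rows rose and 0 fell in the knockout, 4 rose and 0 fell with 2-HD, and the rows that rose were heavy chains and mybpc1. In the fast list 3 of 25 rose and 2 fell in the knockout, and 6 rose and 11 fell with 2-HD. Of all rows tested 4.10% were higher and 1.86% lower in the knockout, and 22.7% higher and 19.7% lower with 2-HD. The rises of the fast list with 2-HD were thus near the share over all rows. The 68 rows together held 8.67 to 9.53% of the total for wild types, 7.85 to 8.75% for knockouts and 7.02 to 8.41% for 2-HD.

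**Figure D5:**
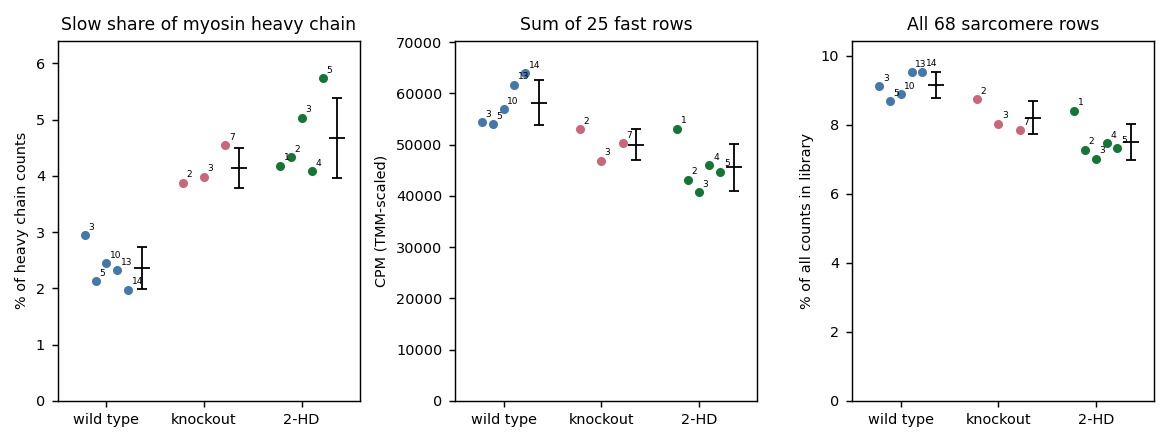
Slow share of myosin heavy chain counts (left, %), sum of the 25 fast rows (middle, CPM) and share of all counts taken by the 68 rows (right, %) in each library, with points numbered by replicate and bars for mean and SD. The slow share reaches at most 2.94% in wild types, and the lowest knockout (3.88%) and the lowest 2-HD library (4.08%) lie above it.

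Between knockout and 2-HD 8 of 67 rows were called (11.9%, against 6.98% of all rows tested), 6 higher in the knockout and 2 lower, where 3.93% of all rows were higher and 3.06% lower. Those higher were the second row of smyhc2, myl10, actc1b, tnnt2d, myoz1a and myoz1b, and those lower were mybpha and myoz3a. The log2 difference of smyhc1 was -0.07 (SE 0.13, edgeR adjusted p = 0.761) and that of the first row of smyhc2 -0.27 (SE 0.11, edgeR adjusted p = 0.161), neither called. Without the pair that stood apart, 12 rows were higher in the knockout and 4 lower, in a fit that called 15.9% of all rows tested. Without knockout replicate 3 edgeR called none (22 at an unadjusted p under 0.05), and without knockout replicate 7 or 2 there were 1 and 2. Of all rows tested, 0.362, 1.83 and 1.03% were called in these fits, in the same order.

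Other genes of muscle fibres were counted from lists of known roles, to be read against all rows tested, of which 4.10% were higher and 1.86% lower in the knockout and 22.7% higher and 19.7% lower with 2-HD. Of 28 energy genes, mostly of glycolysis and creatine phosphate, 3 fell and 0 rose in the knockout, and 18 fell and 2 rose with 2-HD. Examples with 2-HD were pgam2, a glycolytic mutase of muscle (109 ± 11.4 to 67.3 ± 4.98 CPM, edgeR adjusted p = 6.69e-05), tpi1b (492.7 ± 27.3 to 368 ± 15.1 CPM) and the pyruvate kinase gene pkmb (842 ± 112 to 527 ± 52.6 CPM). In the knockout these were slc25a4, the mitochondrial ATP/ADP carrier (log2 fold change -0.38, edgeR adjusted p = 0.0337), cox6a2 (-0.58) and ckmt2a (-0.45).

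Of 32 genes of excitation and calcium release, 1 rose in the knockout, atp2a2a, the calcium pump of slow and heart muscle (log2 fold change 0.77, edgeR adjusted p = 0.0415), and 13 rose and 4 fell with 2-HD, the knockout count and the 2-HD falls being below the shares over all rows. The 2-HD rises included ryr1a, a calcium release channel (55.0 ± 8.67 to 98.2 ± 12.6 CPM, edgeR adjusted p = 0.000109), casq2 (log2 fold change 0.42), which buffers calcium, and the acetylcholine receptor genes chrnd (0.67) and chrne (0.39). Of 56 genes of sarcomere assembly and attachment 1 rose in the knockout, the heart troponin gene tnnc1a, and 26 rose and 6 fell with 2-HD, again with the knockout count and the 2-HD falls below the shares over all rows. The filamin genes flnca (log2 fold change 0.80) and flncb (1.06, edgeR adjusted p = 5.34e-05) were among those that rose. Of 28 regulators of muscle fate none was called by edgeR in the knockout (5 at an unadjusted p under 0.05, 0 by DESeq2), and 10 rose and 3 fell with 2-HD, with eya4 (0.60) and eya2 (0.47) higher and tbx2a (-0.54) lower. Without the pair that stood apart, the 2-HD counts were 2 higher and 19 lower for energy, 14 and 5 for excitation, 30 and 5 for assembly, and 11 and 3 for regulators, and in the knockout 4 assembly genes were higher and 1 lower and 2 excitation genes were higher.

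Most heart markers rose with 2-HD and most were not called in the knockout. The summed level of smooth muscle markers overlapped between the groups. Of 16 tested heart rows 4 rose and 0 fell in the knockout, and 13 rose and 0 fell with 2-HD (3 and 10 without the pair that stood apart). The summed level of the heart list was 346 to 402 CPM in wild type, 420 to 438 CPM in the knockout and 459 to 538 CPM with 2-HD, with no overlap between the groups, and none of its 17 rows was at 0 throughout. Much of this sum was the more read of 2 rows named actc1a, at 209 ± 13.9, 192 ± 46.7 and 265 ± 24.5 CPM in the same order. The separation of knockout replicate 2 from wild type in the sum rests on that row, which stood at 246 CPM there. The 4 that rose in the knockout were myl4, actc1a, myh6 and tnnc1a, of which actc1a was high in replicates 3 and 7 alone (1.64, 22.8 and 26.3 CPM in the 3 knockouts). This is the less read of 2 rows named actc1a, and the other was not called in the knockout (log2 fold change -0.13) and was lower in the same replicates (246, 166 and 164 CPM, against 193 to 224 CPM in wild type). Among the defining genes myl7 stood at 12.8 ± 3.46 CPM in wild type, 16.1 ± 3.62 CPM in the knockout and 29.0 ± 2.75 CPM with 2-HD. Its difference in the knockout was not called (edgeR adjusted p = 0.314). Of 9 tested smooth muscle rows none was called by edgeR in the knockout (1 at an unadjusted p under 0.05, 0 by DESeq2). With 2-HD 2 rose, near the share over all rows (22.7%), and 1 fell, below that share (19.7%). Of these myh11a rose from 30.3 ± 7.38 to 54.4 ± 6.97 CPM and smtnb fell from 56.1 ± 13.0 to 34.6 ± 3.80 CPM, both without overlap, while cnn1b rose with overlap. The summed level ranged over 284 to 375, 280 to 368 and 270 to 397 CPM in wild type, knockout and 2-HD. Of 8 muscle progenitor rows 1 rose in the knockout, met, and 4 rose with 2-HD, met, cdh15, meox1 and pax3b. Not called with 2-HD were pax7a (log2 fold change -0.16), pax7b (0.01), pax3a (0.06) and myf5 (0.28). These and pax3b were named after their values were seen. The summed level of the 8 rows was 55.7 to 75.3, 74.2 to 81.0 and 77.9 to 100.1 CPM in wild type, knockout and 2-HD. The part of heart, smooth muscle or progenitor cells in changes of tpm1, mybpc3, tmod1 and other members used outside skeletal muscle was not tested.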

How the data were processed

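Larval RNA was isolated with TRIzol and sequenced on the BGISeq-500 platform, per the labels' protocols. The authors deposited 1 table of raw counts, with a row for each gene symbol entry and a column for each of the 13 libraries. Per the submitters' processing notes, Trim Galore 0.6.7, HISAT2 2.2.1, featureCounts 2.0.1 and the build GRCz11 were used. The annotation, the strand setting and the handling of reads that map more than once are not given in the sources used here, so paralogues, overlapping genes and antisense partners are uncertain.

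Replicates are named by the number in the description label. In wild type replicate 3 it differs from that in the title (1). No library was taken as a duplicate, since the chi-square per degree of freedom between libraries of the same group was 4.91 to 26.1.

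The main tool was edgeR 4.0.16 (R 4.3.3). Rows were kept by filterByExpr with a minimum count of 10 (22158 rows), scaled with TMM, and fitted with glmQLFit and glmQLFTest to all 13 libraries with 3 group means, so the groups share 1 estimate of spread (biological coefficient of variation 0.151). P-values were adjusted by Benjamini-Hochberg over all rows. SEs were computed from the fold change and its F statistic. The steps were tested on simulated counts. Alternatives were DESeq2 1.42.0, other scalings and filters, other fits, and leaving out libraries. Principal components were taken from log2 CPM (prior count 2). The floor of 3 counts covers counting error only.

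Members, lists, alternatives and naming rules were chosen with earlier results of these data known. In each role the rule named the 3 members with the highest mean CPM and, per comparison, the 3 called members with the smallest adjusted p, besides all slow heavy chains, and up to 3 called genes of each other list. Not all of these are named in the text, and myha, myl1, tnnt1, tnnt2b, tnni1a, tnni1c, tnni1d, tnni2a.3, mybpc1, mybpc2a, nrap, actn2b and tcap fell outside the rule and were added after their values were seen. Of the 66 symbols 65 matched RefSeq's table of assembly GRCz12tu, used for gene order only. Sequences were not used here.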

Additional observations from a re-analysis of the deposited data

Results flagged for a closer look

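Groups of 5 libraries were scanned for members named by the rule. Members added after their values were seen were not scanned, among them mybpc2a. It had 26.9 CPM in 2-HD replicate 1 and 81.9 to 83.4 CPM in the rest of that group. In the scan, 11 of 102 groups held a library whose gap to its nearest neighbour took up most of the range of the group. Chance gives about 1 in 20 such groups. Of the 11, 5 were in 2-HD replicate 1 and 4 in wild type replicate 14, the pair that also stood apart on the second principal component of all rows, and libraries share their effects across rows. Why these libraries stand apart was not tested.

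In 2-HD replicate 1, myhz1.1 had 12266 CPM and the rest of the group 7781 to 8917 CPM, and myhz1.2 had 4309.6 CPM and the rest 2346 to 2781 CPM. Both lay within the wild-type range. There mylz3 was at 5587 CPM against 4147 to 4545 CPM and myoz2a at 32.4 CPM against 25.8 to 27.3 CPM. In the latter pair it was the library of its group nearest to wild type, as in tpm3, where it was lowest, at 457 CPM against 480.5 to 484 CPM.

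In wild type replicate 14, ttn.1 had 3084 CPM and the rest of the group 2086 to 2360.4 CPM, and ttn.2 had 2786 CPM against 2021 to 2130.2 CPM. In the same library myoz1b was at 285 CPM against 259 to 266 CPM and tmod4 at 301 CPM against 238 to 252 CPM. The remaining flags were acta1a in wild type replicate 5, lowest at 227 CPM against 381 to 442 CPM, and tmod1 in 2-HD replicate 2, highest at 5.57 CPM against 3.56 to 4.07 CPM.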

How the results depend on the processing

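All 61 called values of members kept their sign under every alternative run. Of 140 values that were not called, 45 changed sign under at least 1 alternative, among those printed smyhc1 between knockout and 2-HD, which ranged from -0.16 to 0.00621 when 1 library was left out (above 0 without 2-HD replicate 5). Scaling by library size only moved the median of all rows to 0.12 with 2-HD, and relative to this shift the members' median was still lower (0.00519). For knockout minus wild type the counts of members higher and lower were 8 and 3, with 5.97% of all rows called. They were 13 and 2 with library size only (7.88% of all rows) and 13 and 9 by DESeq2 (10.9%). With only the 2 groups compared they were 3 and 0 (0.471%), and without the pair of wild type 14 and 2-HD 1 they were 6 and 6 (6.24%). Leaving out 1 library gave 0 to 11 higher and 0 to 6 lower. For 2-HD minus wild type it gave 20 to 23 higher and 18 to 23 lower, around 21 and 21. For knockout minus 2-HD it gave 0 to 11 and 0 to 3, around 6 and 2. Without the pair those counts were 12 and 4, with 15.9% of all rows called, against 6.98% with all libraries. The log2 ratios of the slow sum spanned 0.44 to 0.56 for the knockout and 0.50 to 0.61 for 2-HD when 1 library was left out, and to 0.166 and 0.168 without smyhc1. Those of the fast sum moved over -0.26 to -0.17 and -0.41 to -0.31. The cause of these shifts was not tested, beyond the fewer libraries or rows that an alternative holds.

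With the replicate number as a block, which leaves few residual degrees of freedom, 0 members were higher and 0 lower in the knockout (2 rows of the whole table), 12 higher and 18 lower with 2-HD, and 2 higher and 3 lower between knockout and 2-HD. The numbers are not known to pair libraries: the groups share at most 2 numbers, and the 5 pairs with the same number had correlations of -0.00416 to 0.264. Wild type replicates 10, 13 and 14, knockout replicate 7 and 2-HD replicates 1 and 4 have numbers that no other library shares. These libraries therefore do not inform the group differences of the block fit.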
